A study of Mus musculus with 20 samples.

Results

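The renin-angiotensin-aldosterone genes described here are 9 genes, chosen by name: Ren1, Agt, Ace, Agtr1a, Agtr1b, Atp6ap2, Mas1, Enpep and Nr3c2. All 9 were rows of the table of 54532 genes. These genes, and the lists of other genes below, were chosen with earlier results of these data known. RNA was sequenced from kidneys and livers of male C57BL/6 mice whose labels give the genotype as Lxrα-/- or wild type. Nr1h3 encodes Lxrα, a receptor of the nucleus that is switched on by oxidised cholesterol. The 4 groups of 5 libraries each are labelled knockout (KO) kidney, wild-type (WT) kidney, KO liver and WT liver. Titles number the KO mice 1 to 5 and the WT mice 1, 3, 4, 5 and 6, and values are listed in that order. The labels give no age, diet, littermate status or deleted part of the gene, and do not spell out that a kidney and a liver of equal number came from the same mouse. P-values therefore measure the spread between these libraries.

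In this system, renin from juxtaglomerular cells of the kidney cuts angiotensinogen from the liver to angiotensin I, an inactive peptide, which angiotensin-converting enzyme turns into the active hormone, angiotensin II. Angiotensin II acts on its type 1 receptors to narrow vessels, to retain sodium and to drive the release of aldosterone from the adrenal cortex, and aldosterone acts on the mineralocorticoid receptor in the distal nephron. Another arm, in which a shorter angiotensin peptide acts on the receptor Mas, opposes several of these effects.

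Total counts per library ran from 23421561 to 35376342. WT kidney 3 stood apart on the first principal component of the kidneys, and 50.8% of its counts came from mitochondrially encoded genes, against 7.21% in WT kidney 1 and 12.6% to 21.1% in the other 8 kidneys. The labels do not give the deleted part of the gene, so the level of Nr1h3 RNA leaves the genotype labels unresolved. It was higher in the labelled KO libraries, at 126 ± 21.7 CPM in KO kidney and 52.1 ± 2.27 CPM in WT kidney (log2 fold change 1.27, SE 0.16, adjusted p = 0.00209, edgeR), and at 167 ± 18.04 CPM in KO liver and 98.2 ± 13.6 CPM in WT liver (log2 fold change 0.76, SE 0.12, adjusted p = 0.00277). CPM are counts scaled by library size within a tissue, values after ± are SD with n = 5, and adjusted p-values are from edgeR's quasi-likelihood test after Benjamini and Hochberg. Every genotype direction below is that of the libraries labelled KO over those labelled WT. The tissues matched their labels: 15 proximal tubule markers summed to 51336 to 67061 CPM in KO kidney, 30063 to 45930 CPM in WT kidney and 1638 to 2834 CPM in liver, and 11 hepatocyte markers summed to 611 to 1521 CPM in kidney and 71835 to 138026 CPM in liver.

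Promoters of 8 of the 9 genes were found in RefSeq's table for build GRCm38.p6. The 250 bases before the start of Ren1, Agt and Ace are shown because the levels of these genes, which make the hormone, set the tissues apart most. The windows are written on the strand of the gene, and capitals mark TATAAA, the core of the TATA box, or its reverse complement TTTATA. They lie 29 bases before the start of Ren1, 30 before that of Agt and 31 before that of Ace. The RefSeq start of Ren1 lies downstream of the start in the count table.
Ren1, chr1:133350424-133350673, plus strand: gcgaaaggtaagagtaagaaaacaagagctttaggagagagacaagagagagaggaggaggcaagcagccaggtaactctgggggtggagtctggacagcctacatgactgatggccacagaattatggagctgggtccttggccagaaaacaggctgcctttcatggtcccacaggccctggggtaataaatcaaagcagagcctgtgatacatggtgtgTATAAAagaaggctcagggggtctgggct
Agt, chr8:124569707-124569956, minus strand: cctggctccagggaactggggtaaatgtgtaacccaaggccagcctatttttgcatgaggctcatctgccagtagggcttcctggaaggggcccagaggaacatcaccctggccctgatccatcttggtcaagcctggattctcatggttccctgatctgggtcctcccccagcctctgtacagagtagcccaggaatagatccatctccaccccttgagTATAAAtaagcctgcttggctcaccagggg
Ace, chr11:105967698-105967947, plus strand, the upstream of its RefSeq starts: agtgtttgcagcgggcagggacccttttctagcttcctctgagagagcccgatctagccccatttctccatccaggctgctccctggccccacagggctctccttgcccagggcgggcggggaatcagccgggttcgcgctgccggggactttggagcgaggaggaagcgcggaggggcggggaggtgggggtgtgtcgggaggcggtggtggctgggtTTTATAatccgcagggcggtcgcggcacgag
Searched on both strands, TATAAA was also found 31 bases before the start of Agtr1b and, as TTTATA, 52 bases before that of Enpep. It was in 12.4% of 32851 promoter windows of this length. The pair of nuclear receptor half-sites that Lxrα is known to bind, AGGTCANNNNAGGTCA, was in none of the 9 windows of these genes and in 0.0152% of all windows. The lone half-site AGGTCA, found in 14.0% of all windows, was 50 bases before the downstream Ace start, which is known for the testis form of the enzyme. The cyclic AMP half-site TGACG, found in 17.8% of all windows, was 62 bases before the start of Atp6ap2. These matches describe letters in these windows and nothing about binding.

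The 2 tissues divided the system between them. Renin and converting enzyme RNA was almost all in kidney, and angiotensinogen and type 1 receptor RNA was higher in liver. Atp6ap2 and Mas1 RNA was higher in kidney. Nr3c2 RNA was higher in liver, a call that was lost without TMM scaling. Of the 8 genes that passed the filter over all 20 libraries, 7 differed between kidney and liver in KO mice (4 higher and 3 lower in kidney) and 7 in WT mice (4 higher and 3 lower). Of all 17606 genes, 60.1% differed in KO (31.4% higher, 28.7% lower) and 59.5% in WT (32.6% higher, 26.8% lower), so these counts are read as a description of where the genes are expressed. Kidney and liver libraries did not overlap for 8 of 8 genes in KO, beside 52.9% of all genes, and for 5 of 8 in WT (Ren1, Agt, Ace, Agtr1a and Nr3c2), beside 43.7%. In the order of their levels per length (FPKM, counts scaled by library size and by gene length), KO kidney had Agt at 33.6 ± 11.7, Atp6ap2 at 29.5 ± 5.33, Ren1 at 23.9 ± 13.04, Ace at 18.9 ± 4.68 and Enpep at 17.2 ± 3.45 FPKM, and each of these overlapped the next. Agtr1a followed at 7.82 ± 0.817 FPKM, below every value of Enpep, then Nr3c2 at 1.34 ± 0.164 and Mas1 at 0.895 ± 0.430 FPKM, whose ranges overlapped, and Agtr1b at 0.0271 ± 0.0106 FPKM. WT kidney had Ren1 first, at 52.7 ± 16.6 FPKM, then Agt at 40.02 ± 8.72 and Atp6ap2 at 27.5 ± 13.4 FPKM. Its Enpep, Ace and Agtr1a followed at 20.7 ± 9.74, 13.6 ± 8.01 and 8.26 ± 1.19 FPKM, each overlapping the next, while Nr3c2 at 1.71 ± 0.298, Mas1 at 0.483 ± 0.222 and Agtr1b at 0.0227 ± 0.0263 FPKM did not overlap each other. By its mean, Ren1 lay below Agt and Atp6ap2 in KO kidney and above both in WT kidney. In KO liver Agt stood alone at 480.2 ± 50.7 FPKM, above Agtr1a at 20.2 ± 2.21 FPKM and the overlapping pair of Atp6ap2 at 14.00 ± 1.60 and Enpep at 11.7 ± 1.76 FPKM. WT liver had the same leading pair, Agt at 442 ± 94.4 and Agtr1a at 23.8 ± 2.97 FPKM, which did not overlap, then Enpep at 15.5 ± 2.81 and Atp6ap2 at 14.5 ± 1.46 FPKM, which did. Nr3c2 was at 2.49 ± 0.621 FPKM in KO liver and 2.87 ± 0.782 FPKM in WT liver, and the highest FPKM values of the low genes in any liver were 0.466 for Ace, 0.310 for Mas1 and 0.147 for Ren1, with Agtr1b at 0.

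**Figure D1:**
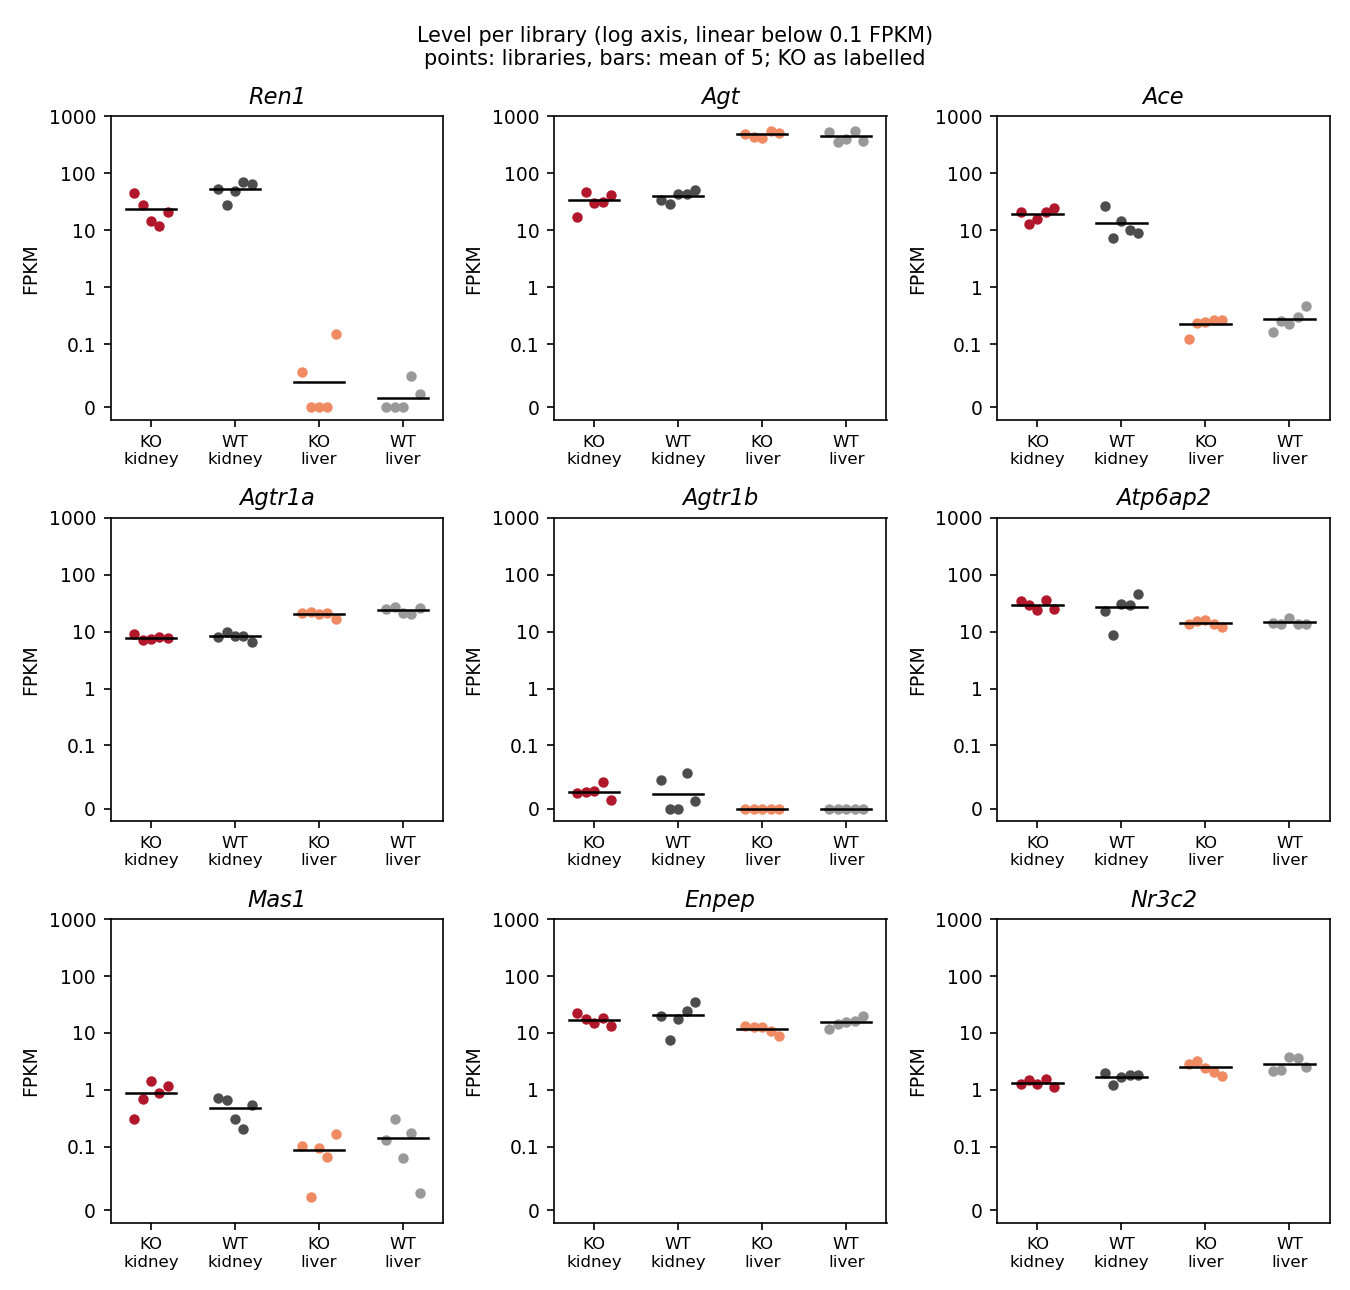
Level of each of the 9 genes in FPKM (vertical axis, logarithmic and linear below 0.1 FPKM) in every library of KO kidney, WT kidney, KO liver and WT liver; points are libraries and bars are means of 5. Ren1 and Ace sit in kidney, Agt and Agtr1a are higher in liver, and Agtr1b is at or near 0 in all 4 groups.

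Agt (ENSMUSG00000031980, chromosome 8, 124556534 to 124569706, minus strand, all positions in mm10) encodes angiotensinogen, the substrate of renin. Its level was 752, 664, 646, 820.5 and 751 CPM in KO livers and 791, 538, 619, 843 and 575 CPM in WT livers. The groups overlapped, with the lowest and the highest value both in WT, and the difference missed the threshold (log2 fold change 0.11, SE 0.15, adjusted p = 0.738). In kidney, Agt was at 40.6, 111, 69.5, 73.4 and 95.8 CPM in KO and 77.8, 70.7, 105, 104 and 118 CPM in WT. KO kidney 1 was the lowest library, and the groups overlapped (log2 fold change -0.29, SE 0.25, adjusted p = 0.508); the log2 fold change was -0.12 without KO kidney 1, -0.44 without KO kidney 2 and -0.19 without WT kidney 6. Agt was lower in kidney than in liver in both genotypes (log2 fold change of kidney over liver -3.84 in KO and -3.47 in WT; adjusted p = 8.76e-12 in KO and 4.20e-11 in WT, edgeR), and no kidney library reached a liver library.

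Ren1 (ENSMUSG00000070645, chromosome 1, 133350510 to 133360325, plus strand) encodes renin, the protease that starts the cascade and limits its rate; C57BL/6 mice carry Ren1 and lack the Ren2 copy of some other strains. Ren1 was at 91.7, 57.8, 29.3, 24.3 and 41.5 CPM in KO kidneys and 109.9, 58.4, 101, 143 and 135 CPM in WT kidneys, with means of 48.9 ± 27.2 CPM in KO and 109.6 ± 33.5 CPM in WT. Of the KO libraries, 4 lay below every WT library, and the groups overlapped only because KO kidney 1 lay above WT kidney 3. The difference was the largest of the 9 genes in kidney and missed the threshold in edgeR (log2 fold change -1.16, SE 0.35, adjusted p = 0.0989, unadjusted p = 0.00496), and the 95% interval of the log2 fold change ran from -1.91 to -0.42. It passed with DESeq2 (adjusted p = 0.0287), with limma voom and library weights (adjusted p = 0.00515), with all 20 libraries in 1 fit (adjusted p = 0.0464, where 5.38% of all genes were called), and without KO kidney 1 (-1.52, adjusted p = 0.0499, where 0.773% were called); without WT kidney 3 it was -1.30 with an adjusted p of 0.0507. Over 19 alternatives the log2 fold change stayed between -1.53 and -0.99 and the adjusted p between 0.00515 and 0.243. In whole-tissue RNA, fewer renin cells and less Ren1 RNA per cell cannot be told apart.

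**Figure D2:**
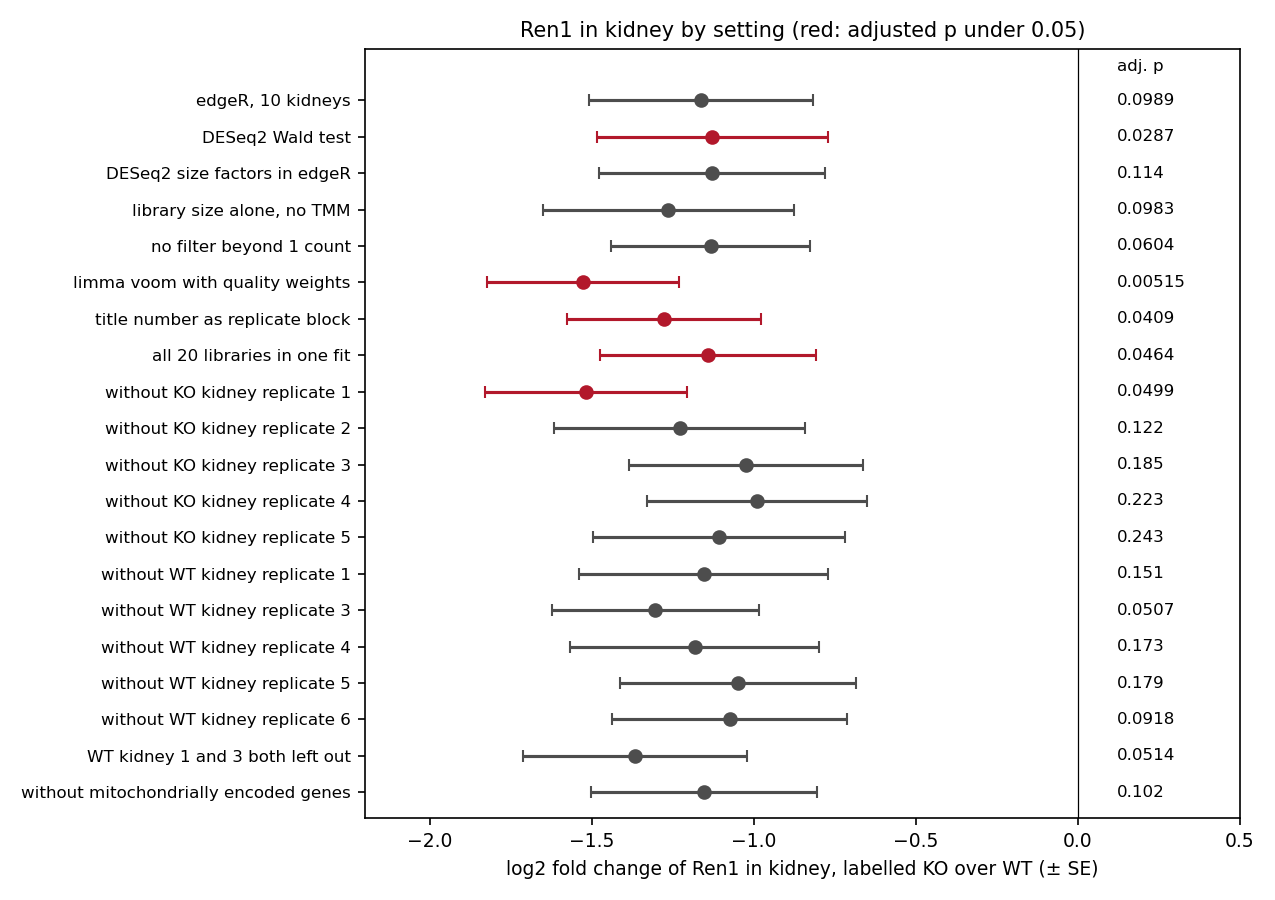
Log2 fold change of Ren1 in kidney, KO over WT (horizontal axis, ± SE), under edgeR on 10 kidneys and 19 alternatives, with the adjusted p at the right; red marks an adjusted p under 0.05. All 20 values lie below 0, and 5 alternatives pass the threshold.

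In liver, Ren1 had counts of 2, 0, 0, 0 and 5 in KO libraries and 0, 0, 0, 2 and 1 in WT libraries, too few for the test. Summed over libraries, kidney had 6996 Ren1 counts against 7 in liver in KO mice and 17213 against 3 in WT mice. After scaling these are ratios of kidney to liver of 623 in KO (95% interval 302 to 1549) and 3613 in WT (1236 to 17520), with intervals that cover counting error only.

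Ace (ENSMUSG00000020681, chromosome 11, 105967945 to 105989964, plus strand) encodes angiotensin-converting enzyme, which in kidney lines vessels and the proximal tubule brush border. It was at 135, 83.9, 103, 134 and 159.6 CPM in KO kidneys and 176, 49.2, 98.1, 67.9 and 57.9 CPM in WT kidneys. WT kidney 1 was the highest of all 10 and the other 4 WT kidneys reached at most 98.1 CPM, so the groups overlapped (log2 fold change 0.45, SE 0.32, adjusted p = 0.425); without WT kidney 1 the log2 fold change was 0.87 with an adjusted p of 0.112. In liver, Ace had only 14, 24, 25, 39 and 29 counts in KO libraries and 18, 30, 27, 38 and 70 counts in WT libraries (log2 fold change -0.32, SE 0.31, adjusted p = 0.618). Without WT liver 6 the log2 fold change in liver was -0.033, and without KO liver 1 it was -0.16. Kidney exceeded liver in every library (log2 fold change of kidney over liver 6.37 in KO and 5.58 in WT).

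Enpep (ENSMUSG00000028024, chromosome 3, 129269175 to 129332720, minus strand) encodes aminopeptidase A, which trims angiotensin II. It was the gene nearest to a genotype call in liver, at 50.5, 48.4, 47.6, 40.8 and 33.3 CPM in KO livers and 44.5, 54.1, 60.5, 60.2 and 74.8 CPM in WT livers. All WT livers but WT liver 1 lay above every KO liver (log2 fold change -0.41, SE 0.15, adjusted p = 0.135, unadjusted p = 0.0160); without KO livers 4 and 5, a choice made after seeing the data, the log2 fold change was -0.26 with an adjusted p of 0.431. In kidney it was at 132, 103, 85.6, 104 and 76.6 CPM in KO and 115, 46.6, 104, 142 and 202 CPM in WT. The WT kidneys held both the lowest value, in WT kidney 3, and the highest, in WT kidney 6 (log2 fold change -0.28, SE 0.30, adjusted p = 0.591). Its kidney over liver difference missed the threshold in edgeR in both genotypes (log2 fold change 0.56, adjusted p = 0.0635, in KO, and 0.42, adjusted p = 0.166, in WT), and passed it in 8 of 26 alternatives in KO and 4 of 27 in WT. Without WT kidney 3 alone it was 0.56 (adjusted p = 0.00938) in KO and 0.63 (adjusted p = 0.00643) in WT.

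Agtr1a (ENSMUSG00000049115, chromosome 13, 30336441 to 30382867, plus strand) encodes the main type 1 angiotensin receptor of mouse. Its level varied little: 31.7, 24.05, 24.9, 27.5 and 26.2 CPM in KO kidneys and 27.1, 35.9, 29.8, 29.4 and 23.02 CPM in WT kidneys. The KO values lay within the range of the WT values (log2 fold change -0.11, SE 0.15, adjusted p = 0.681). In liver it was at 48.4, 48.9, 45.2, 46.4 and 36.1 CPM in KO and 54.8, 60.6, 47.9, 44.6 and 59.8 CPM in WT. KO liver 5 was the lowest and 3 WT livers lay above every KO liver (log2 fold change -0.25, SE 0.12, adjusted p = 0.264). It was lower in kidney than in liver (log2 fold change of kidney over liver -1.37 in KO and -1.53 in WT).

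Agtr1b (ENSMUSG00000054988, chromosome 3, 20314473 to 20367177, minus strand), the other type 1 receptor gene of mouse, is best known from the adrenal gland. It had counts of 2, 2, 2, 3 and 1 in KO kidneys and 5, 0, 0, 5 and 1 in WT kidneys and no count in any liver library, where 0 allows up to 3 counts per library. It did not pass the filter on low counts. Without that filter, its KO over WT log2 fold change in kidney was 0.16 (adjusted p = 0.956, edgeR), and kidney over liver was called in KO (adjusted p = 0.0318) and in WT (adjusted p = 0.0352), where 34.0% of 34445 genes were called in each genotype. Agtr1b entered that fit through its few kidney counts alone, so no weight is put on its kidney over liver calls. No fold is given for kidney over liver, since every liver was at 0. Its share of the summed Agtr1a and Agtr1b counts was 0.268% ± 0.104 in KO kidneys and 0.218% ± 0.243 in WT kidneys, a difference of 0.0499 percentage points (exact two-sided permutation test, p = 0.706; the smallest p this design allows is 0.00794). Since the genes are similar in sequence, reads may have been assigned to either.

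Atp6ap2 (ENSMUSG00000031007, chromosome X, 12587801 to 12617049, plus strand) encodes the (pro)renin receptor, which is also an accessory subunit of the vacuolar proton pump. It was at 111, 95.2, 76.7, 116 and 78.6 CPM in KO kidneys and 75.4, 29.2, 100.4, 97.6 and 149 CPM in WT kidneys. WT kidney 3 was the lowest library and WT kidney 6 the highest, so WT enclosed KO (log2 fold change 0.079, SE 0.32, adjusted p = 0.899), and the sign turned without WT kidney 3. In liver it was at 28.6, 31.6, 33.7, 28.5 and 24.5 CPM in KO and 29.9, 28.8, 36.2, 28.7 and 29.5 CPM in WT, overlapping ranges (log2 fold change -0.061, SE 0.11, adjusted p = 0.806). It was higher in kidney than in liver (log2 fold change of kidney over liver 1.08 in KO and 0.93 in WT; adjusted p = 0.00107 in KO and 0.00375 in WT).

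Mas1 (ENSMUSG00000068037, chromosome 17, 12841079 to 12868143, minus strand) encodes the receptor Mas. It was rare, at 1.03, 2.20, 4.59, 2.86 and 3.71 CPM in KO kidneys and 2.29, 2.26, 1.003, 0.666 and 1.76 CPM in WT kidneys. In 3 of 5 KO kidneys it lay above every WT kidney, and KO kidney 1 lay among the lowest (log2 fold change 0.85, SE 0.42, adjusted p = 0.280; adjusted p = 0.0273 with limma voom and library weights). Its liver counts were 6, 1, 5, 6 and 9 in KO and 7, 18, 5, 11 and 2 in WT, below the filter in liver alone. Mas1 was higher in kidney than in liver (log2 fold change of kidney over liver 3.21 in KO and 1.75 in WT), a call lost in WT without WT kidneys 1 and 3 (1.29, adjusted p = 0.0528). Airn, an imprinted noncoding RNA on the opposite strand (12741311 to 12860136), spans 12841079 to 12860136 of Mas1 and shares no annotated exon base with it. Airn, chosen after its values were seen, was at 18.6, 12.98, 24.8, 15.03 and 16.3 CPM in KO kidneys and 9.40, 7.80, 8.10, 6.29 and 12.03 CPM in WT kidneys. Those groups did not overlap, and Airn was higher in KO kidney (log2 fold change 1.01, SE 0.22, adjusted p = 0.0332, edgeR). The use of strand in the counting is not given, so reads of Mas1 and Airn in the shared span cannot be told apart, and the part of Airn in the Mas1 values was not tested.

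Nr3c2 (ENSMUSG00000031618, chromosome 8, 76899442 to 77245012, plus strand) encodes the mineralocorticoid receptor. It was at 10.3, 11.7, 9.99, 12.3 and 8.98 CPM in KO kidneys and 15.9, 10.2, 13.6, 15.04 and 14.8 CPM in WT kidneys. Every WT kidney but WT kidney 3 lay above every KO kidney (log2 fold change -0.39, SE 0.17, adjusted p = 0.228, unadjusted p = 0.0380), and only limma voom called it (adjusted p = 0.0367). In liver it was at 15.3, 17.1, 12.8, 10.7 and 8.83 CPM in KO and 11.1, 12.02, 19.7, 18.9 and 13.1 CPM in WT. The ranges overlapped (log2 fold change -0.21, SE 0.21, adjusted p = 0.625), and without KO livers 4 and 5 the log2 fold change was 0.016. It was lower in kidney than in liver (log2 fold change of kidney over liver -0.90 in KO and -0.74 in WT), and this call was lost without TMM scaling (-0.28, adjusted p = 0.285, in KO and -0.06, adjusted p = 0.822, in WT), where the median of all genes moved to 0.63 in KO and 0.71 in WT.

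Across the set, edgeR called 0 of 8 tested genes in kidney, where it called 2.26% of 16500 genes (0.394% higher and 1.87% lower), and 0 of 6 in liver, where it called 6.02% of 14822 genes. The KO and WT libraries overlapped for every tested member in both tissues, while they did not overlap for 6.92% of all genes in kidney and 6.95% in liver. At an unadjusted p under 0.05 there were 2 in kidney, Ren1 and Nr3c2, beside 19.8% of all genes, and 1 in liver, Enpep, beside 20.3%. DESeq2 called 1 in kidney, Ren1, beside 7.27% of all genes, and 0 in liver, beside 9.51%. Limma voom called 3 in kidney, Mas1, Nr3c2 and Ren1, beside 13.0% of all genes, and 0 in liver, beside 7.78%. The median log2 fold change of the tested genes was -0.20 in kidney, beside -0.074 for all genes tested, and -0.23 in liver, beside -0.0032. The difference between tissues was taken as the log2 fold change of KO over WT in kidney minus the same in liver. For it edgeR called 0 of 8, beside 1.51% of 17606 genes (0.937% with a positive difference), and 0 had an unadjusted p under 0.05, beside 13.5%. DESeq2 and limma voom also called 0, beside 3.47% and 3.87% of all genes. The widest were Ren1 at -2.37 (95% interval -5.38 to 0.63), which rests on its few liver counts, Mas1 at 1.46 (-0.10 to 3.02) and Ace at 0.79 (-0.18 to 1.77); the other 5 lay between -0.37 and 0.16.

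**Figure D3:**
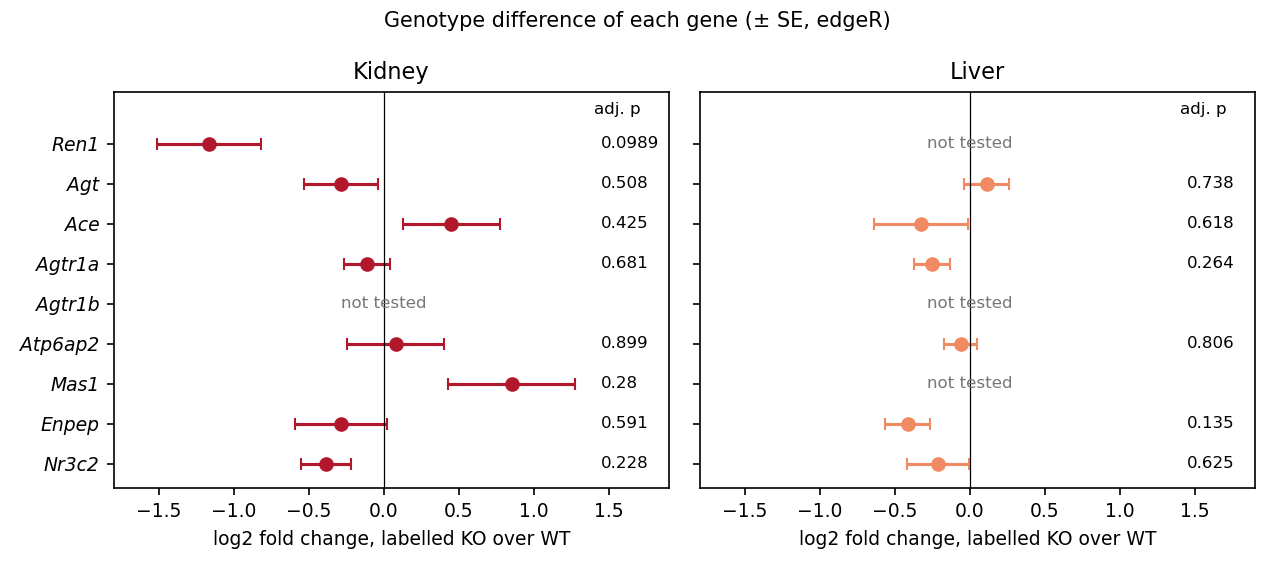
Log2 fold change of each gene, KO over WT (horizontal axis, ± SE, edgeR), in kidney (left) and liver (right), with adjusted p-values at the right of each panel. No gene passes 0.05; Ren1 in kidney has the largest difference, -1.16, and genes below the filter are marked as not tested.

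Markers of several cell types were summed per kidney library, with no test of the sums; of the sums given here, those of proximal tubule markers did not overlap between KO and WT and the others did. The 14 juxtaglomerular and mural cell markers summed to 157 to 315 CPM in KO and 211 to 368 CPM in WT. Of 13 tested, 1 fell (Mcam, log2 fold change -0.76, adjusted p = 0.0483). Their median was -0.80, with 12 negative and 1 positive. The smooth muscle markers Acta2, at -0.047, and Myh11, at 0.13, lay near 0. Of all genes, 1.87% fell and 0.394% rose in kidney, which is the background for each of these counts of called genes. A negative log2 fold change was seen in 56.2% of all genes tested there. Among the mural markers Akr1b7, an aldo-keto reductase that marks renin cells in mouse kidney, was at 3.15, 3.11, 1.74, 2.22 and 1.72 CPM in KO kidneys and 2.98, 3.39, 3.01, 5.48 and 4.39 CPM in WT kidneys (log2 fold change -0.69, SE 0.27, adjusted p = 0.193). Podocyte markers summed to 91.3 to 319.7 CPM in KO and 251 to 394 CPM in WT, with 0 of 7 called and a median of -0.77. Endothelial markers summed to 204 to 422 CPM in KO and 406 to 594 CPM in WT, with 1 of 10 lower (Cdh5) and a median of -0.75. The summed proximal tubule markers lay higher in KO and did not overlap between the groups (51336 to 67061 CPM in KO, 30063 to 45930 CPM in WT). Of the 15, 1 was called higher (Slc22a6), and their median was 0.45, with 14 positive and 1 negative (Slc5a12, -0.12). Several lay near 0, among them Slc34a1 at 0.019, Slc5a2 at 0.032 and Miox at 0.098. Slc34a1 averaged 3689 ± 846 CPM in KO kidneys and 3641 ± 1452 CPM in WT kidneys. Distal nephron markers had 0 of 13 called and a median of -0.080, immune cell markers 2 of 12 lower and a median of -1.13, and mesenchymal markers 2 of 10 lower and a median of -0.90. The least detected marker of the mural list was Tbx18, with at most 14 counts in all over a group. The part of this difference in cell markers in the values of Ren1, Ace, Mas1 and Nr3c2 was not tested.

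**Figure D4:**
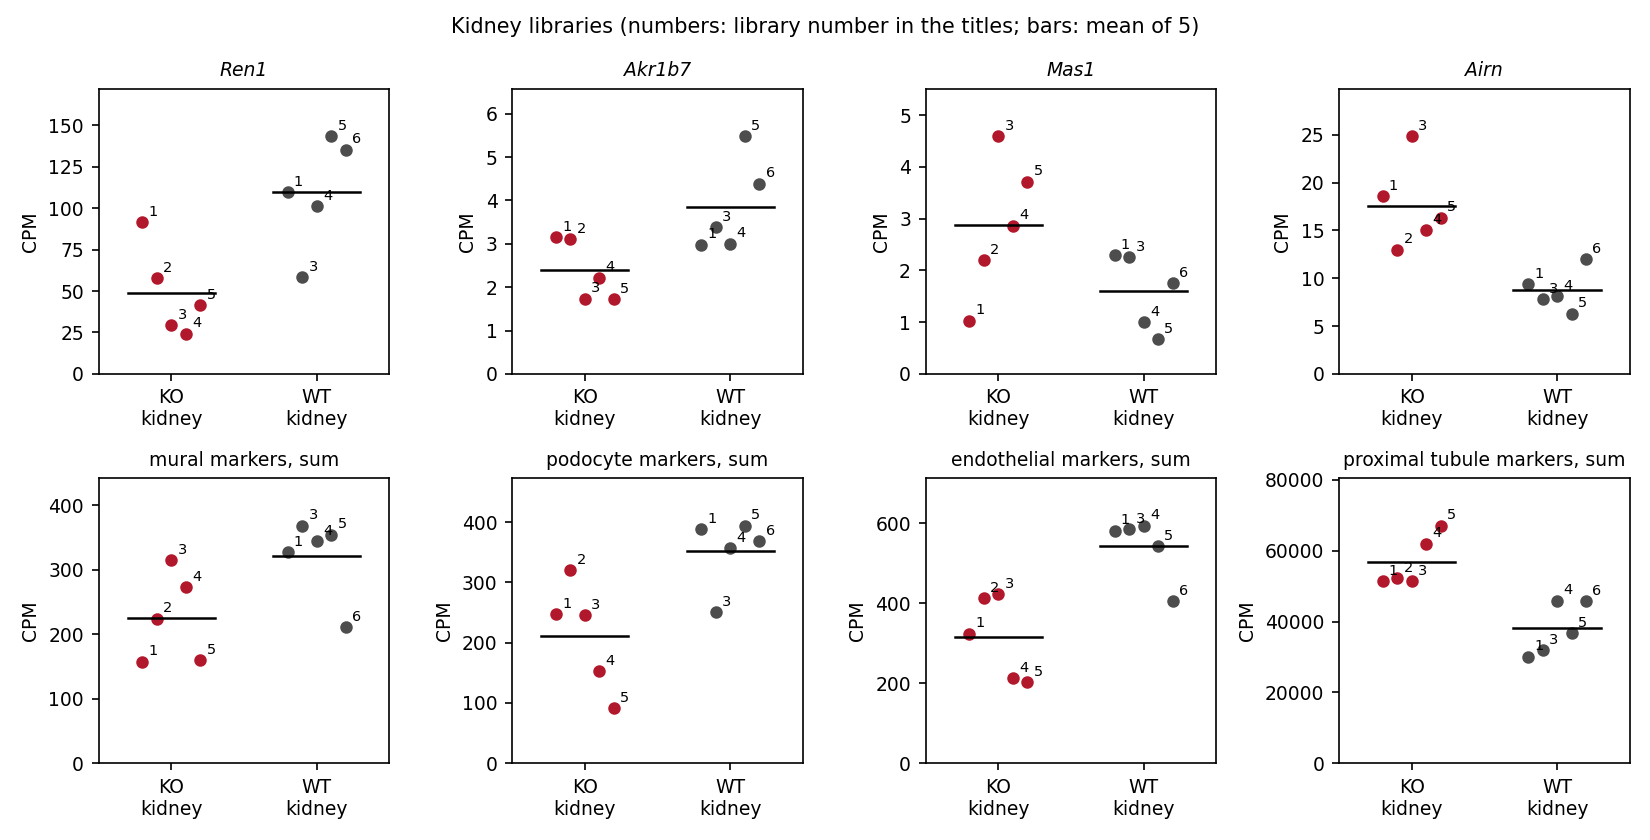
CPM in each KO and WT kidney library of Ren1, Akr1b7, Mas1 and Airn (top row) and of the summed mural, podocyte, endothelial and proximal tubule markers (bottom row); numbers are those of the titles and bars are means of 5. Airn and the proximal tubule sum do not overlap between the groups, while Ren1 overlaps through KO 1 and WT 3.

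Of the other genes around renin and its control in kidney, no member of the renin release list passed the test, with 0 of 19 called. All 19 had a negative log2 fold change, as did 56.2% of all genes tested in kidney. Their median was -0.55, beside -0.074 for all genes. The smallest p-values were those of Gja5, the connexin of juxtaglomerular cells (log2 fold change -0.89, SE 0.24, adjusted p = 0.0692), and of Ramp2 and Calcrl, which together form an adrenomedullin receptor (-0.93, adjusted p = 0.0715, and -1.05, adjusted p = 0.0942). DESeq2 and limma voom called each of these 3, beside 7.27% and 13.0% of all genes in kidney. In liver 0 of 15 were called, with Adcy5, Kcnj10 and Pde3b at -0.59, -0.99 and -0.40 (adjusted p = 0.173, 0.202 and 0.213). Gja5, Ramp2 and Calcrl are also found in endothelial or mural cells, whose markers had medians of -0.75 and -0.80, and the part of those cells was not tested.

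In the list of other receptors and partners, 1 of 9 tested genes fell in kidney, where 1.87% of all genes fell. This was Aplnr, the apelin receptor, a relative of the type 1 angiotensin receptor. It was at 3.02, 7.19, 5.58, 1.996 and 2.06 CPM in KO kidneys and 10.99, 10.2, 12.5, 11.4 and 13.1 CPM in WT kidneys, groups that did not overlap (log2 fold change -1.55, SE 0.33, adjusted p = 0.0315). The call was lost in 6 of 10 fits that left out a library, those without KO kidney 1, 4 or 5 or without WT kidney 1, 4 or 5, with an adjusted p of up to 0.0893. Next were Apln, its ligand (-0.59, adjusted p = 0.130), and Bdkrb2, the kinin receptor (-0.91, adjusted p = 0.185). In liver 0 of 6 were called, with Agtrap, which binds the type 1 receptor, having the smallest p (-0.46, adjusted p = 0.216), before Gnaq (-0.24) and Atp6ap1 (0.16).

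Of the other angiotensin peptidases, 0 of 10 were called in kidney (median 0.21), where Thop1 had 0.30 (adjusted p = 0.265) and Mme, neprilysin, -0.51 (adjusted p = 0.339). In liver 1 of 10 fell, beside 4.08% of all genes: Ctsd, cathepsin D, a lysosomal protease that can cleave angiotensinogen. Ctsd was at 132, 126, 141, 161 and 149 CPM in KO livers and 200.5, 224, 201, 253 and 193 CPM in WT livers. Every KO liver lay below every WT liver (log2 fold change -0.60, SE 0.12, adjusted p = 0.00894), and the call was lost with all 20 libraries in 1 fit (adjusted p = 0.135). Ctsb, cathepsin B, had -0.42 (adjusted p = 0.0606, called by DESeq2, limma voom and without TMM) and Lnpep -0.29 (adjusted p = 0.293). In kidney Ctsd was 0.42 (adjusted p = 0.361), and the difference between tissues was 1.03 (adjusted p = 0.0843). Of 27 alternatives, 5 called that difference (DESeq2, limma voom, and without WT kidney 3, WT kidney 6 or WT kidneys 1 and 3), with adjusted p from 0.00367 to 0.187 over all 27. The kallikrein-kinin genes, which make kinins that the converting enzyme degrades, had 0 of 5 called in kidney; Klkb1, plasma prekallikrein, had -0.68 (adjusted p = 0.193), Kng2, a kininogen, -0.32 (0.415) and Cpn1, a kininase, -0.23 (0.426). For liver the same list had 0 of 6 called, and Kng1 had -0.25 (adjusted p = 0.324).

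Downstream of aldosterone, 0 of 23 genes of mineralocorticoid signalling and sodium transport were called in kidney, and their median was -0.10. The smallest p-values were those of Slc12a1, the sodium-potassium-chloride cotransporter of the thick ascending limb, of Fkbp5, a chaperone induced by corticosteroid receptors, and of Per1, a clock gene. Slc12a1 was at 225, 462, 404, 389 and 302 CPM in KO kidneys and 1001, 1581, 739.6, 476 and 482 CPM in WT kidneys; every KO kidney lay below every WT kidney (log2 fold change -1.26, SE 0.34, adjusted p = 0.0715). DESeq2 (adjusted p = 0.00683), limma voom (adjusted p = 0.0421), all 20 libraries in 1 fit (adjusted p = 0.0404) and leaving out WT kidney 6 (adjusted p = 0.0336) called it. With the replicate block, 5 of 19 alternatives called Slc12a1 and 14 did not. Over all 19 the log2 fold change ran from -1.43 to -0.67 and the adjusted p from 0.00683 to 0.196. Fkbp5 was at 76.3, 52.6, 83.2, 63.4 and 105 CPM in KO kidneys and 46.2, 37.7, 53.9, 51.6 and 44.7 CPM in WT kidneys, overlapping in 1 KO library (log2 fold change 0.70, SE 0.19, adjusted p = 0.0765), and 3 of 20 alternatives called it (DESeq2, all 20 libraries in 1 fit, and without KO kidney 2). Per1 had a log2 fold change of -1.02 (adjusted p = 0.159). The aldosterone-responsive genes Sgk1, Scnn1a, Scnn1b, Scnn1g and Slc12a3 had log2 fold changes of -0.34, -0.54, -0.28, -0.054 and 0.034, none called, and were picked out after their values were seen. In liver 1 of 16 rose, beside 1.94% of all genes: Wnk4, a kinase that controls the thiazide-sensitive cotransporter in kidney. Wnk4 was at 5.35, 4.28, 5.45, 6.48 and 6.02 CPM in KO livers and 2.64, 1.65, 3.66, 1.56 and 1.98 CPM in WT livers. The groups did not overlap (log2 fold change 1.27, SE 0.24, adjusted p = 0.00725), and the call was lost with all 20 libraries in 1 fit (adjusted p = 0.0566); its difference between tissues was -1.92 (adjusted p = 0.0631). Of 27 alternatives, 5 called that difference (DESeq2, no filter, and without WT kidney 5, WT kidney 6 or WT liver 4), with values from -2.14 to -0.88 and adjusted p from 0.0116 to 0.196 over all 27. Atp1b1, a sodium pump subunit, had -0.34 (adjusted p = 0.139) and Sgk1 -0.48 (adjusted p = 0.226) in liver.

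Of 9 genes of adrenal steroid synthesis, 2 could be tested in each tissue. Kidney had neither called, with Akr1b7 as above and Star, which carries cholesterol into mitochondria, at 0.094 (adjusted p = 0.796). Cyp11b1 had no count in any library, and Cyp11b2, the aldosterone synthase, had none in kidney and at most 2 in a liver library. In liver 1 of the 2 rose, beside 1.94% of all genes. This was Cyp21a1, the steroid hydroxylase of the adrenal cortex. It had counts of 59, 21, 36, 42 and 147 in KO livers and 0, 0, 1, 0 and 3 in WT livers. Every KO liver was above every WT liver, and the summed counts gave a scaled ratio of 82.9 (95% interval 32.0 to 306, counting error only). The test gave an adjusted p of 6.58e-04 (edgeR). Cyp21a1 passed the filter on low counts through its KO liver counts alone, so no weight is put on its calls or its ratio. The table also holds 1 Cyp21a2 pseudogene copy, so reads may be shared between the copies. In kidney Cyp21a1 had at most 1 count in a library, and the difference between tissues missed the threshold in edgeR (adjusted p = 0.374) and passed it with DESeq2 (adjusted p = 0.00982) and limma voom (adjusted p = 0.00155). Star had 0.40 in liver (adjusted p = 0.354).

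**Figure D5:**
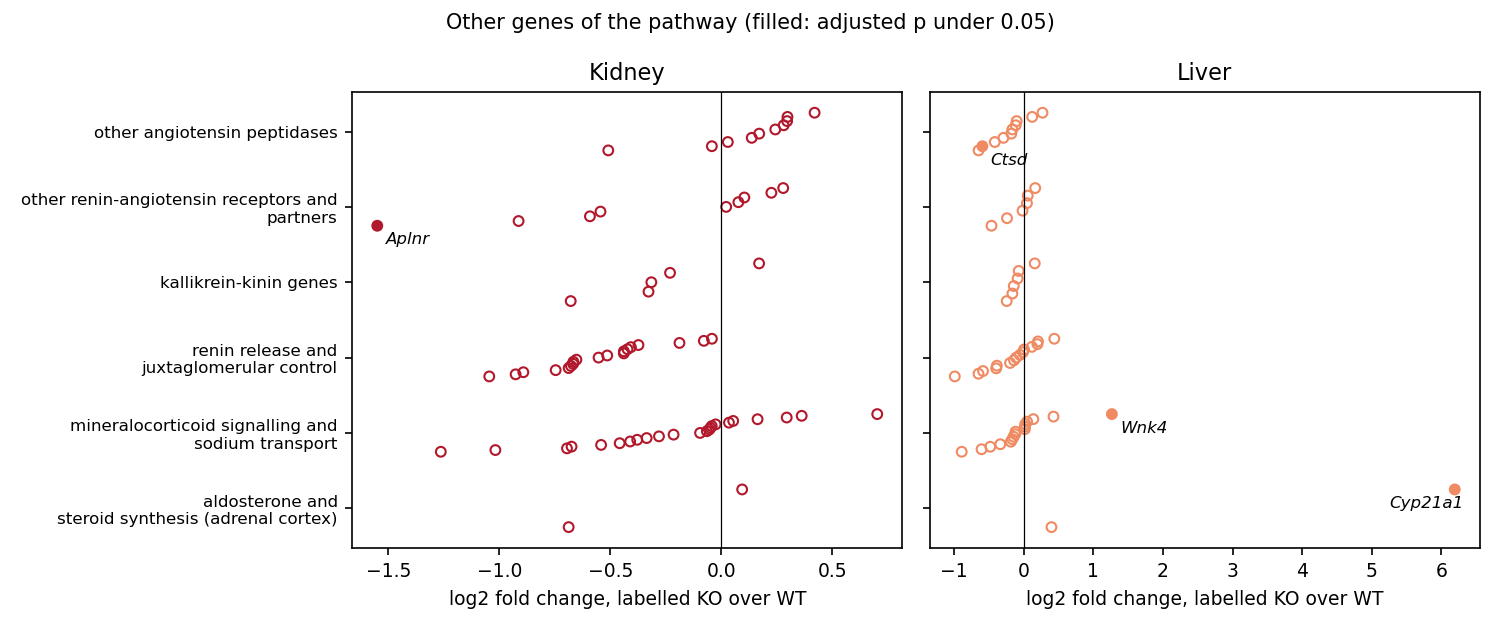
Log2 fold change, KO over WT (horizontal axis), of the tested genes of 6 lists around the system in kidney (left) and liver (right); each circle is a gene and filled circles have an adjusted p under 0.05. Aplnr is filled in kidney, and Ctsd, Wnk4 and Cyp21a1 in liver. All 19 renin release genes lie below 0 in kidney, as do 56.2% of all genes tested there.

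In liver, 6 of 15 acute phase genes rose, beside 1.94% of all genes, with a median log2 fold change of 1.32. Their sums were 23320, 30694, 22918, 100744 and 150183 CPM in KO livers and 26351 to 29490 CPM in WT livers. KO livers 4 and 5 stood far above every WT liver, while KO livers 1 and 3 lay below every WT liver. No acute phase gene had KO and WT livers that did not overlap. Hepatocyte markers summed to 71835 to 99747 CPM in KO and 105413 to 138026 CPM in WT, with 1 of 11 lower (Alb), beside 4.08% of all genes. Alb itself averaged 44694 ± 10691 CPM in KO livers and 74970.5 ± 8485 CPM in WT livers, and the median log2 fold change of the 11 was 0.050, with 6 positive and 5 negative. Read against the same shares of all genes, endothelial markers had 1 of 10 lower, immune cell markers 6 lower and 1 higher of 12, and mesenchymal markers 1 of 10 lower. Agt, which hepatocytes make and which is known as an acute phase gene in rodents, was not called beside them, and the part of these differences in the values of Agt, Enpep and Nr3c2 was not tested.

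The genes whose levels across 10 libraries were most like each member, by the correlation of log2 CPM over the libraries of the tissue where the member is higher, were as follows. For Ren1 they were Sfpq (r = 0.92), Ltb (0.89) and Xpnpep2 (0.87) in kidney. For Ace they were Myh14 (0.99), Osbpl10 (0.97) and Mlf2 (0.97), and for Mas1 they were Prdm4 (0.89), Vill (0.87) and Capn10 (0.86). Atp6ap2 varied with Arl6, Mtpn and Cdc42 (0.99 each) and Enpep with Iqgap2 (0.99), Cldn1 (0.97) and Hbb-bt (0.97). In liver, Agt varied with Ntpcr, Rassf7 (0.90 each) and Cib2 (0.89), Agtr1a with Phlpp1 (0.95), Scap and Tmie (0.94 each), and Nr3c2 with Nmd3, Cab39 and Otud6b (0.95 each). Among the members themselves, Atp6ap2 and Enpep varied together in kidney (r = 0.89), while Ren1 and Mas1 varied in opposite directions (r = -0.79). These correlations describe 10 libraries that share their groups and depth, with WT kidney 3 among the kidneys.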

How the data were processed

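Total RNA of kidney and liver was made into libraries with the NEBNext Ultra kit, per the labels' protocols. The authors' deposited table holds raw counts per gene for 20 libraries, and a further deposited table holds log2 FPKM values, which served in an alternative alone. StringTie, HISAT2 (2.0.5), build mm10 and DESeq2 (1.16.1) are listed in the submitters' processing notes; the counting tool and the use of strand are not given in the sources used here. Gene positions are those of the count table.

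Each tissue was fitted with edgeR 4.0.16 in R 4.3.3 (filterByExpr, minimum count 10, TMM, quasi-likelihood F test, Benjamini-Hochberg over all tested genes, adjusted p under 0.05). The difference between tissues and kidney over liver came from all 20 libraries, fitted jointly by group means. SE were derived from the test statistic. CPM were scaled within a tissue and FPKM over all 20 libraries with the table's gene lengths. The share of Agtr1b was compared by exact permutation. A gene of the peptidase list, and a ratio that used it, are not reported here. Intervals of ratios of summed counts, and the limit for a library without a count, cover counting error only. Intervals of log2 fold changes come from the edgeR fit and include the spread between libraries. No 2 libraries of a group agreed within sampling noise.

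Alternatives were DESeq2 1.42.0, DESeq2 size factors, no TMM, no filter, limma 3.58.1 (voom with library weights, and limma-trend on log2 FPKM), all 20 libraries in 1 fit, the replicate number or mouse as a block, leaving out each library, and, added after seeing the data, leaving out WT kidneys 1 and 3, KO livers 4 and 5 or mitochondrially encoded genes. The scripts were tested on simulated data. There edgeR called 30.6% of the genes given a 2-fold change in kidney and 64.9% in liver. For 4-fold changes it called 92.7% in kidney and 96.8% in liver. A gene that was not called is thus not shown to be unchanged. The 9 genes and 15 lists (181 symbols, 180 in the table) were chosen with earlier results of these data known. Named were all 9 genes, Nr1h3, from each pathway list the called genes and at least the 3 with the smallest p, and up to 4 called genes of each marker list; some of these are given by count alone. Likeness was searched among protein-coding genes with a mean of at least 1 CPM. Ren1 is not in the log2 FPKM table, so it has 19 alternatives.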

Additional observations from a re-analysis of the deposited data

Results flagged for a closer look

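A library far from the other 4 of its group was found in 6 of 96 groups of values, where chance gives about 1 in 20, or 4.8. Ace was at 0.524 CPM in KO liver 1 and 1.01 to 1.13 CPM in the other KO livers. Agtr1a was at 36.1 CPM in KO liver 5 and 45.2 to 48.9 CPM in the others. Atp6ap2 was at 36.2 CPM in WT liver 4 and 28.7 to 29.9 CPM in the others. Lnpep, insulin-regulated aminopeptidase, was at 19.0 CPM in WT liver 5 and 25.4 to 26.9 CPM in the others. Klkb1, plasma prekallikrein, was at 1.96 CPM in WT kidney 1 and 4.42 to 5.00 CPM in the others. Cyp21a1 was at 5.67 CPM in KO liver 5 and 0.880 to 2.21 CPM in the others.

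The genotype effect differed between the tissues for 1 of 70 tested genes of the pathway lists, Akr1b7, which is a share close to the 1.51% of all genes called for this difference. The value was 2.93 on the log2 scale for kidney minus liver (SE 0.73, adjusted p = 0.0445, edgeR). Its kidney values are given with the markers above. In liver it had counts of 1, 0, 1, 2 and 3 in KO libraries and 5, 26, 6, 40 and 22 in WT libraries, groups that did not overlap but were too low for the test within liver. It entered the fit of 20 libraries through its higher kidney counts, so no weight is put on the call. The adjusted p ran from 0.00676 to 0.0960 over 27 alternatives, and 18 of them lost the call.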

How the results depend on the processing

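Over 1768 values of single genes under alternatives, 1661 kept their direction and their side of the threshold, 30 lost a call, 63 gained one and 14 turned sign. The count of the 9 genes called in kidney was 0 with edgeR, 1 with DESeq2, 3 with limma voom, 1 with the replicate block on title numbers, 1 with all 20 libraries in 1 fit and 0 to 1 leaving out each library; the count over all genes moved as well, to 1151, 2151, 902 and 948 under those 4 alternatives, against 373. Equal title numbers of different genotype were not taken as pairs, since their correlations were 0.06 to 0.16 in kidney and -0.04 to 0.05 in liver and only 1 of 4 kidney numbers correlated best with its own; under the block Ren1 was -1.28 with an adjusted p of 0.0409, Slc12a1 in kidney gained a call (adjusted p = 0.0433) and Ctsd in liver lost its call (adjusted p = 0.111). With the mouse as a block, 8 genes differed between tissues in KO and 7 in WT, and 0 in the genotype effect between tissues. Without the block, 60.1% of all genes differed between tissues in KO and 59.5% in WT, and 1.51% in the genotype effect. The share of all genes called with the block is not given here. The counts with the block thus have no background of their own and are read as a description only. The Agtr1b share ran from -0.0047 to 0.123 percentage points leaving out each library. Atp6ap2 in kidney was -0.034 without TMM, -0.055 with limma voom, -0.28 without WT kidneys 1 and 3, and -0.13 to 0.33 leaving out each library; in liver it was 0.041 without KO livers 4 and 5 and -0.11 to 0.017 leaving out each library. Enpep in kidney was 0.046 with the replicate block, and Nr3c2 in liver 0.016 without KO livers 4 and 5. For KO over WT in kidney minus the same in liver, Atp6ap2 ran from -0.075 to 0.41 and was -0.20 without WT kidneys 1 and 3, Enpep from -0.068 to 0.41 and -0.15, and Aplnr, with at most 7 counts in a liver, from -0.89 to 3.35. Leaving out each library, values that missed the threshold ran from -0.18 to -0.00074 for Agtr1a and -0.47 to -0.026 for Enpep in kidney, and from 0.061 to 0.20 for Agt and -0.33 to -0.083 for Nr3c2 in liver. The causes were not tested. Depth limits Agtr1b, and Ren1, Mas1 and Ace in liver, where few counts give wide intervals.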
